A study of Mus musculus with 6 samples.

Results

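Glutathione transferases were followed in the bone marrow (BM) of mice that had been lethally irradiated and transplanted, with 1 probe for each of 10 genes, chosen by their symbols among the 13831 genes named on the array. The genes were Gstm1, Gstm2 and Gstm5 of the mu class, Gsta4 of the alpha class, Gstp1 of the pi class, Gstt1 of the theta class, Gsto1 of the omega class and the membrane-bound Mgst1, Mgst2 and Mgst3. Of the 10 probes, 9 were found through their sequence record and Mgst2 through its gene number. Gstm5 had been picked by the study from these same arrays, so its direction between the transplanted groups is not independent evidence. The study also measured Gstm5 by quantitative PCR in separate recipients and reported the same direction. Those recipients are not among these arrays. The methods call the mesenchymal stromal cells given in that experiment bulk in the list of groups and clonal where the PCR is described.

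There were 3 groups of pooled whole BM from female C57BL/6J mice aged 6 to 10 weeks, with 2 arrays per group. The BM group was unmanipulated and not irradiated, with 2 mice pooled per array. The HSC group had been given 9.5 Gy followed by 1000000 bone marrow cells, which include hematopoietic stem cells, and each array pooled 2 mice. The MSC group had been given the same dose followed by 1000000 bulk mouse mesenchymal stromal cells (mMSCs), and each array pooled 3 mice. The mMSCs came from male marrow, had been expanded over many passages and labelled with a retroviral eGFP vector, and carried chromosomal alterations. Per the methods of the study the transplanted recipients carried CD45.1. The study reported that donor mMSCs were no longer detected in the tissues later on, within the limit of its assay. Its tracing of donor cells over time used a clone of the mMSCs, whereas the arrays used recipients of bulk cells. An irradiated group without cells was not analysed here. The methods place the sampling of marrow at day 21 after transplantation, but the series describes it as taken at 7 months.

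Glutathione transferases join the tripeptide glutathione to reactive molecules, such as products of lipid oxidation and many drugs, which makes them less toxic and ready for export from the cell. The cytosolic enzymes fall into classes by sequence. The membrane-bound enzymes belong to an unrelated family, and some of its members make leukotrienes, lipid mediators of inflammation, instead of detoxifying. Several glutathione genes are targets of Nrf2, a transcription factor that is released under oxidative stress and binds the antioxidant response element. The core of this element is TGACNNNGC, in which N stands for any base.

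Gstm5 and Mgst1 had the largest differences between MSC and HSC among the members, in opposite directions, and their promoters are shown because these were also the only member promoters with the core of the antioxidant response element. Each sequence gives the 120 bases before the start site from RefSeq (GRCm38.p6), 5′ to 3′ along the gene, with the match in capitals. For Gstm5 it covers chr3:107895734-107895853 on the plus strand, and for Mgst1 chr6:138140407-138140526 on the plus strand.
Gstm5: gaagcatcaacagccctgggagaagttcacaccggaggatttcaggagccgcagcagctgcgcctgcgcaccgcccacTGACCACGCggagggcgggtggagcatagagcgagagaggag
Mgst1: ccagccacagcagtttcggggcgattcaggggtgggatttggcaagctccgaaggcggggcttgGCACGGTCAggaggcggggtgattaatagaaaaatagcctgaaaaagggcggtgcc
The match began 42 bases before the start site of Gstm5, and that of Mgst1, which reads on the opposite strand, began 56 bases before it. Both strands were searched over windows from 250 bases before to 50 bases after each start site. Of 11 such windows for 9 of the members, 2 held the core, and a second start site of Mgst1 did not. No window was matched for Gsta4. The core was found in 12.4% of 32851 windows of all genes. A match is a run of letters and does not show binding, and its part in the differences below was not tested.

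Between 11072 and 12510 probes per array were above background. None of the member spots was saturated. All values below are log2 of the background-corrected, quantile normalized intensity, which can be compared between arrays for one probe but not between probes. In pooled marrow, fewer cells of a type and less RNA per cell cannot be told apart. Markers of other cells moved between the groups as well. Of 12 early B cell markers tested, 6 fell in MSC against HSC (limma, adjusted p under 0.05), with a median log2 difference of -2.01. The summed intensity of the 10 with a value on every array was 19567 to 20216 in BM, 26349 to 27970 in HSC and 5618 to 7672 in MSC. MSC replicate 2 stood apart, with a summed T and NK cell intensity of 42304 against 9754 to 11953 on the 5 other arrays, and the highest stroma, monocyte and macrophage and adipocyte sums. Neutrophil markers, which cover the most abundant marrow cells, were above background for 9 to 11 of 11 probes. The 10 with a value on every array summed to 289964 and 272074 in BM, 285715 and 258441 in HSC, and 270092 and 223050 in MSC, lowest on MSC replicate 2. Erythroid markers had median differences of 0.90 for MSC minus HSC and 0.95 for MSC minus BM, with 0 of 6 and 0 of 7 past the threshold. The summed intensity of the 5 erythroid probes with a value on every array was 49548 and 42807 in MSC, 41919 and 35227 in HSC, and 38437 and 29427 in BM. Slc4a1, the anion exchanger of red cells, read 13.17 and 10.24 in BM, 12.12 and 10.80 in HSC, and 13.04 and 13.32 in MSC. Of the platelet and megakaryocyte markers, 2 of 6 fell in HSC and 2 of 7 in MSC against BM, and 1 of 6 fell in MSC against HSC. The 6 of these markers with a value on every array summed to 36220 and 35247 in BM, 7099 and 9371 in HSC, and 4186 and 3722 in MSC. The part of these cells in the results below was not tested. Where leaving out 1 array moved a difference of a member between MSC and either other group by more than 1.5 times, the value without it is given beside the result or in the closing section.

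Gstm5, the mu class gene at one end of its cluster on chromosome 3, was the only member that was higher on both MSC arrays than on every other array by more than 1 log2 unit. Its values were 11.44 and 11.34 in BM, 11.30 and 11.07 in HSC, and 12.49 and 12.63 in MSC. Before normalization, its spot exceeded its local background by 3312 and 2972 intensity units in BM, 2063 and 1786 in HSC, and 5136 and 6166 in MSC. Both BM arrays read above both HSC arrays on either scale, although these groups lay close together after normalization. Both MSC arrays lay above the BM and HSC arrays on either scale. MSC exceeded HSC by 1.37 log2 units (SE 0.20), a 2.59-fold difference with a 95% interval of 1.86 to 3.62. This fell short of the threshold of 0.05 (limma, adjusted p = 0.0532), where it ranked 64 among 11660 tested probes by its p.
MSC exceeded BM by 1.17 (SE 0.20), or 2.26-fold with an interval of 1.61 to 3.16 (limma, adjusted p = 0.0942). HSC and BM differed by -0.20 (SE 0.20, limma, adjusted p = 0.909), so these neighbours in the order of levels did not differ beyond their spread. The comparisons share the MSC arrays and are not independent of each other. Without MSC replicate 2, the difference from HSC was 1.32 (limma, adjusted p = 0.241). The call depended on the probes and variance model used, since Gstm5 passed the threshold when only probes above background on all 6 arrays were tested (limma, adjusted p = 0.0452) or when the variance was allowed to follow the level (limma, adjusted p = 0.0407). It also met the rule of the study's methods, a t-test p of at most 0.01 with a ratio of at least 2.5, as did 0.313% of 10852 probes, but not after adjustment of that test (0.419).

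**Figure D1:**
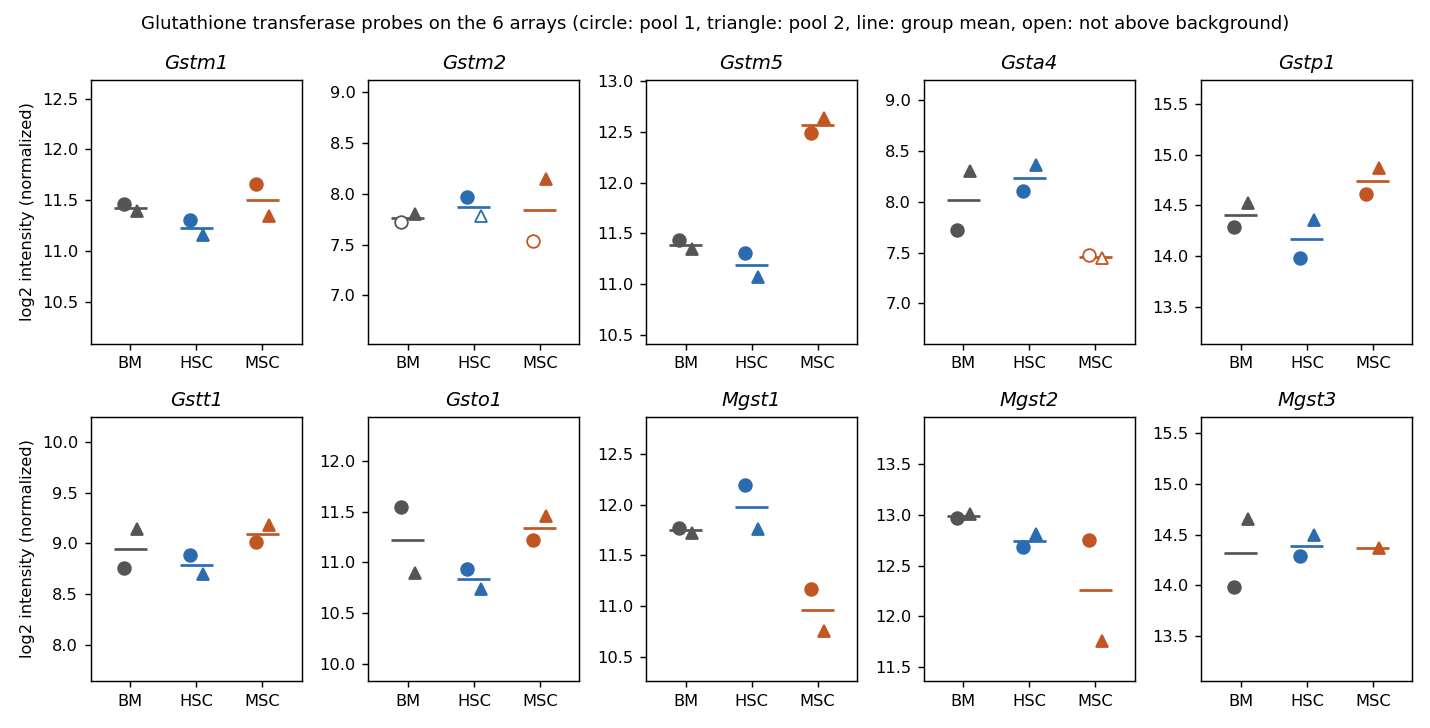
Log2 normalized intensity of the 10 glutathione transferase probes on the 6 arrays, with an axis of equal length in each panel. Filled marks are above background and open marks are not, circles are pool 1 and triangles pool 2, and lines are group means; the MSC arrays lie apart for Gstm5 (12.49 and 12.63) and below the others for Mgst1 (11.17 and 10.75), and Mgst3 has 1 MSC value.

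The other mu class genes differed less between the groups. Gstm1, which is widely expressed in mouse tissues, had values of 11.46 and 11.39 in BM, 11.31 and 11.15 in HSC, and 11.66 and 11.34 in MSC. Both MSC arrays were above both HSC arrays but one lay below the BM arrays. The difference from HSC was 0.27 (SE 0.21, 95% interval -0.23 to 0.78, limma, adjusted p = 0.546), and it was 0.11 without MSC replicate 1 and 0.44 without MSC replicate 2. Gstm2 was above background on 1 array of each group and was therefore tested in no comparison. Its values were 7.72 and 7.80 in BM, 7.97 and 7.78 in HSC, and 7.53 and 8.14 in MSC, and the groups overlapped.
Along chromosome 3 of the RefSeq annotation the mu class genes are ordered Gstm5, Gstm7, Gstm6, Gstm3, Gstm2, Gstm1 and Gstm4. Gstm7, Gstm6 and Gstm3 were above background on 0 of the 6 arrays. Gstm4, at the other end of the cluster from Gstm5, was above background on all 6 arrays and was 0.43 lower in MSC than in HSC (SE 0.25, limma, adjusted p = 0.419). This difference was -0.19 without MSC replicate 2, -0.67 without MSC replicate 1 and -0.26 without HSC replicate 2. Neither Gstm1 nor Gstm4 thus had a difference as large as that of Gstm5. The mu class genes resemble one another in sequence, and how far a probe also bound RNA of another was not tested.

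Mgst1, the membrane-bound enzyme that conjugates glutathione and reduces lipid peroxides, was lower on both MSC arrays than on all others. Its values were 11.77 and 11.72 in BM, 12.20 and 11.76 in HSC, and 11.17 and 10.75 in MSC. It was 1.02 lower in MSC than in HSC (SE 0.25, 95% interval of the difference -1.61 to -0.43), a 2.03-fold difference that did not pass the threshold (limma, adjusted p = 0.135). Against BM it was 0.78 lower (SE 0.25, limma, adjusted p = 0.299), and HSC and BM differed by 0.24 (SE 0.25, limma, adjusted p = 0.912). Without MSC replicate 2, which had the lowest value, the difference from HSC was -0.82 (limma, adjusted p = 0.452).
Mgst2, which can make leukotriene C4 as well as conjugate glutathione, depended on a single array. Its values were 12.97 and 13.01 in BM, 12.68 and 12.81 in HSC, and 12.75 and 11.76 in MSC. Only MSC replicate 2 lay apart from the others. The difference between MSC and HSC was -0.49 (SE 0.33, limma, adjusted p = 0.484) and became 0.0084 without that array. The difference from BM was -0.74 (SE 0.33, limma, adjusted p = 0.430) and became -0.24 without it and -1.23 without MSC replicate 1. Mgst3, a further enzyme of this family with peroxidase activity, had values of 13.98 and 14.66 in BM, 14.29 and 14.49 in HSC, and 14.37 on MSC replicate 2. The spot on MSC replicate 1 was marked as contaminated and left out of the fit. The BM arrays spanned the whole range of the others, and the difference between MSC and HSC was -0.02 (SE 0.35, 95% interval -0.90 to 0.85, limma, adjusted p = 0.982).

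Among the cytosolic classes other than mu, Gstp1 was higher and Gsta4 lower in MSC than in HSC without reaching the threshold. Gstp1, the pi class enzyme that is plentiful in many blood cells, had values of 14.29 and 14.52 in BM, 13.98 and 14.36 in HSC, and 14.61 and 14.87 in MSC. Both MSC arrays were above the 4 others, by 0.57 on average over HSC (SE 0.23, limma, adjusted p = 0.283) and by 0.34 over BM (SE 0.23, limma, adjusted p = 0.618). Without HSC replicate 1 the first was 0.38, and the second was 0.21 without MSC replicate 2 and 0.22 without BM replicate 1. Gsta4, which has a high activity towards 4-hydroxynonenal, a product of lipid peroxidation, had values of 7.73 and 8.30 in BM and 8.11 and 8.36 in HSC. On the MSC arrays it read 7.48 and 7.44 and was not well above background on either. Its mean was 1.71-fold lower than in HSC (95% interval of the log2 difference -1.38 to -0.17, limma, adjusted p = 0.211). Against BM it was 1.47-fold lower (-1.16 to 0.05, limma, adjusted p = 0.441). For these folds each MSC level was set to the reading of the probe or, if higher, to the dimmest reading still above background. They are limits for the dim MSC readings only and leave out the spread between arrays. The difference from BM rested on BM replicate 2, since the fitted difference of -0.55 was -0.27 without that array and -0.81 without BM replicate 1.
Gsto1, the omega class enzyme that reduces methylated arsenic compounds and dehydroascorbate, had values of 11.54 and 10.89 in BM, 10.93 and 10.74 in HSC, and 11.22 and 11.46 in MSC. Both MSC arrays were above both HSC arrays and within the range of BM. The difference from HSC was 0.50 (SE 0.27, 95% interval -0.14 to 1.15, limma, adjusted p = 0.392). Gstt1, the theta class enzyme that acts on small halogenated compounds, had values of 8.76 and 9.14 in BM, 8.89 and 8.70 in HSC, and 9.01 and 9.18 in MSC. Its difference between MSC and HSC was 0.30 (SE 0.23, 95% interval -0.23 to 0.84, limma, adjusted p = 0.524).

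Counted together, 0 of the 9 tested members passed the threshold in any of the 3 comparisons. Over all probes, limma called 0.48% of 11660 between MSC and HSC, 0.43% of 11861 between MSC and BM, and 0.0359% of 11153 between HSC and BM. At an unadjusted limma p under 0.05, Gstm5 and Gstp1 were higher and Mgst1 and Gsta4 lower in MSC than in HSC, which is 4 of 9 members against 16.9% of all tested probes. Gsta4 was tested only through HSC, where both arrays were above background, and Gstm5 and Mgst1 were picked with the results known. The count of 4 is therefore not independent of how the members were chosen and filtered. Against BM, Gstm5 was higher and Mgst1 lower at that p, 2 of 9 against 12.4%. Between HSC and BM it was 0 of 9 against 5.36%.
The arrays of MSC and HSC did not overlap for 7 of the 8 tested members with a value on all 4 arrays (untested Gstm2 also has all 4 values, and overlapped), 5 higher and 2 lower, against 24.8% higher and 26.5% lower among all probes. Between MSC and BM there were 2 higher and 3 lower, against 20.5% and 21.9%, and between HSC and BM 0 higher and 3 lower, against 20.4% and 16.2%. These 3 were Gstm1, Gstm5 and Mgst2, each lower in HSC by at most 0.25. Gsta4 is among the lower members in both comparisons of MSC and was tested only through the other group. The median log2 difference of the tested members was 0.27 for MSC minus HSC, 0.08 for MSC minus BM and -0.20 for HSC minus BM, where the medians of all tested probes were 0.02, 0.01 and 0.01. With 2 arrays against 2, a two-sided exact permutation test cannot give a p below 0.333, so none was run.

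**Figure D2:**
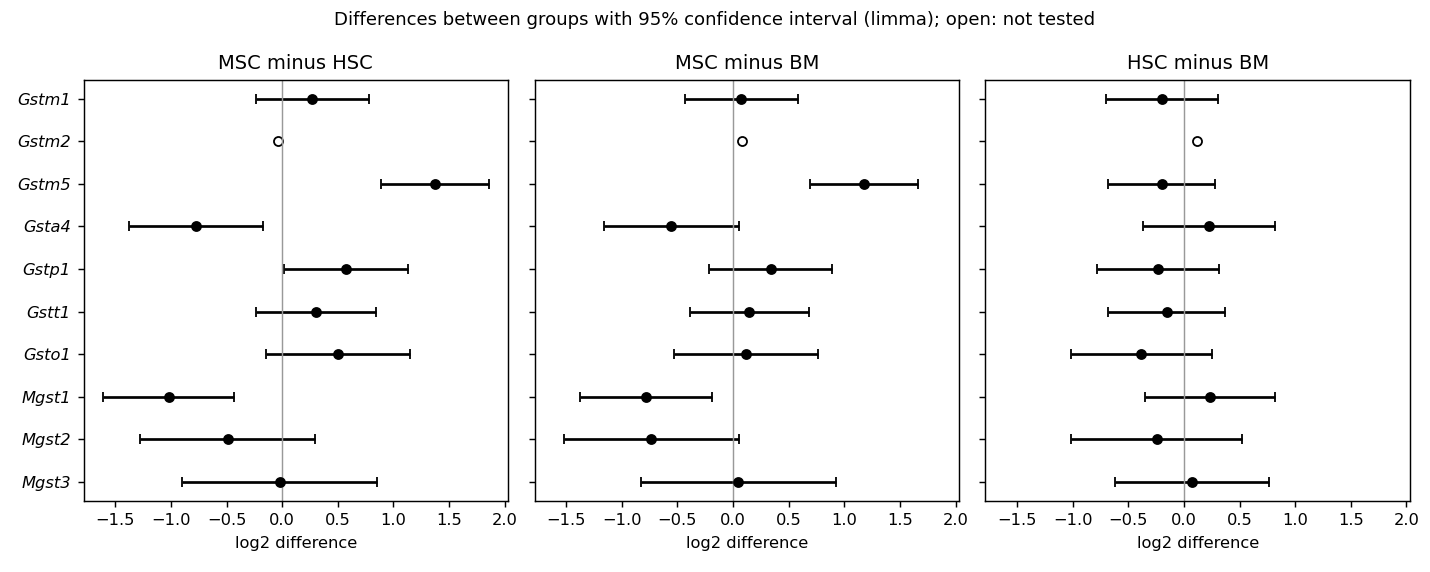
Log2 differences of each member between groups, with 95% confidence intervals from limma as bars and open marks for Gstm2, which was not tested. The interval of Gstm5 stays above 0 and that of Mgst1 below 0 in both comparisons of the MSC group, and all intervals between HSC and BM include 0.

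Setting Gstm5 against Mgst1 on the same array removes differences that shift both probes alike. With each gene centred on its own mean over the arrays, Gstm5 less Mgst1 was -0.48 and -0.53 in BM, -1.05 and -0.84 in HSC, and 1.17 and 1.73 in MSC. The sign was thus negative on all BM and HSC arrays and positive on both MSC arrays. The difference of the group means was 2.39 between MSC and HSC, 1.96 between MSC and BM, and -0.44 between HSC and BM. These are descriptions, since both genes were picked with the results known.
Set against each of the 9 other members in the same way, Gstm5 was higher on every MSC array with a value than on all BM and HSC arrays. The smallest gap was 0.44, against Gstp1, and the largest 1.66, against Mgst1. Among the 6 others above background on every array, the group difference between MSC and HSC was lowest against Gstp1 (0.80) and Gsto1 (0.87). Against Gsta4 and Gstm2, which were not above background on both or 1 of the MSC arrays, the values have no exact size. The 9 contrasts share the values of Gstm5.

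**Figure D3:**
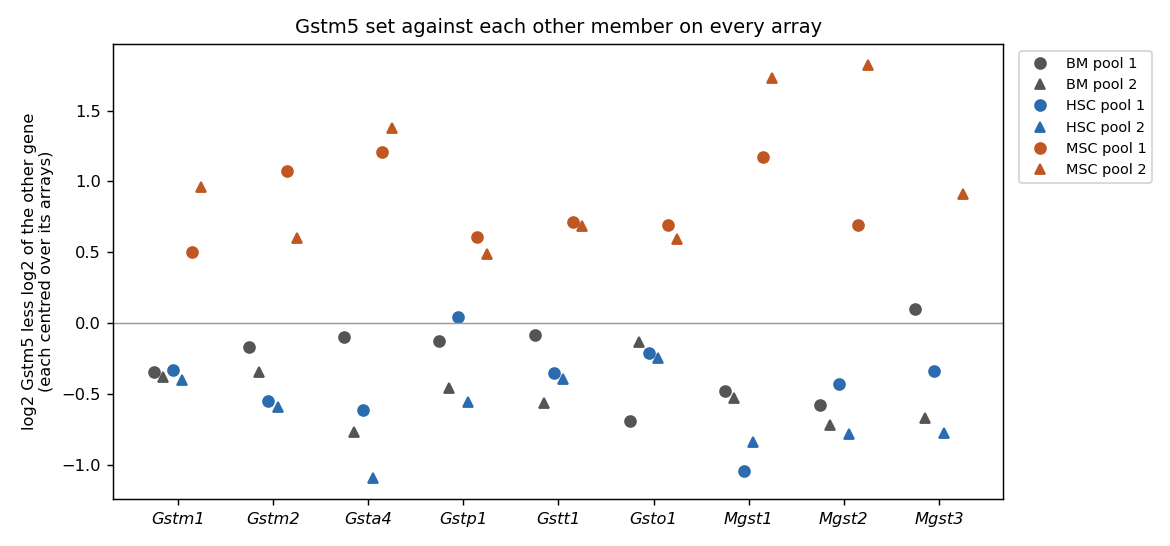
Log2 Gstm5 less log2 of each other member on every array, after centring each gene on its mean over the arrays (Mgst3 has no value on MSC pool 1, and Gsta4 on both MSC arrays and Gstm2 on 3 arrays were not above background). The orange MSC marks lie above the BM and HSC marks in each column, by 0.44 against Gstp1 and by 1.66 against Mgst1.

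Among 2035 probes with a gene symbol that were above background on all arrays and ranged over at least 1 log2 unit, 66 correlated with Gstm5 above 0.9 (Pearson, across the 6 arrays). Among the closest were Tbxas1 (thromboxane synthase, 0.995), Ccs (the copper chaperone of superoxide dismutase, 0.979) and Snrpa1 (a splicing protein, 0.974). The values of Tbxas1 were 9.31 and 9.36 in BM, 9.20 and 8.95 in HSC, and 10.25 and 10.36 in MSC. Like Gstm5, it was high on the MSC arrays and about level on the others.
For Mgst1, 126 probes correlated above 0.9, led by Pilra (an inhibitory receptor of myeloid cells, 0.999), Gmfg (a regulator of the actin cytoskeleton in blood cells, 0.997), Zfp101 (a zinc finger protein, 0.995) and Ppp1r2 (an inhibitor of protein phosphatase 1, 0.994). Pilra read 13.18 and 13.16 in BM, 13.70 and 13.17 in HSC, and 12.48 and 11.90 in MSC. It repeated the order of Mgst1, with the highest value on HSC replicate 1 and the lowest on MSC replicate 2. These correlations rest on 6 arrays of 3 groups and carry no p.

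The genes around the transferases were described from lists of 70 other genes, of which 65 had 67 probes. In MSC against HSC, 50 of these probes were tested and 0 passed the threshold (limma, smallest adjusted p = 0.105). At an unadjusted limma p under 0.05, 14 of 50 (28.0%) were higher and 0 lower in MSC, where all probes gave 7.01% higher and 9.91% lower. Ggt1, Abcc3 and Gstp3 are among the 14 but were tested only because both MSC arrays were above background. Their entry thus favoured a higher value in MSC. The median difference of the 50 probes was 0.34, against 0.02 over all tested probes. Some probes outside the 14 also entered through MSC alone, so entry favoured a higher median as well. Against BM, 12 of 51 (23.5%) were higher and 0 lower, where all probes gave 5.40% and 7.02%. Ggt1 is among the 12 and entered in the same way. Between HSC and BM, 0 of 46 were so in either direction, where all probes gave 5.36% over both directions.
Over 18 alternatives the counts between MSC and HSC ran from 6 to 18 higher and from 0 to 2 lower, and those between MSC and BM from 5 to 15 higher and from 0 to 1 lower. The lowest counts of higher probes, 6 and 5, came from the methods' t-test. Without HSC replicate 2 the count of higher probes between MSC and HSC was 8, and without BM replicate 2 the count between MSC and BM was 6. Without MSC replicate 2 the counts were 12 and 11.

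The lists are described by role and were not tested against each other. Of 11 tested probes for synthesis and breakdown, 4 were higher in MSC than in HSC at an unadjusted p under 0.05. These include Ggt1, which entered through MSC alone. Gss, glutathione synthetase, read 8.83 and 7.97 in BM, 8.62 and 7.97 in HSC, and 9.71 and 10.35 in MSC, a difference from HSC of 1.73 (SE 0.39, limma, adjusted p = 0.119). Both MSC arrays of Gss lay above all others. Gclm, the modifier subunit of the rate-limiting enzyme, was 0.95 higher (SE 0.23, limma, adjusted p = 0.134). Slc3a2, the heavy chain of the cystine transporter, was 1.29 higher but had an SE of 0.54 and was 0.68 higher without HSC replicate 2.
Of 14 tested Nrf2 genes, 5 were higher at that level, with Gclm counted in both lists. Srxn1, which repairs oxidized peroxiredoxins, was 1.23 higher in MSC than in HSC (SE 0.25, limma, adjusted p = 0.105). Hmox1, which breaks down heme, read 11.33 and 11.44 in BM, 11.80 and 11.78 in HSC, and 12.59 and 13.58 in MSC, a difference of 1.29 (SE 0.33, limma, adjusted p = 0.148). Its lower MSC array still lay above all others, and the difference was 0.81 without MSC replicate 2. Ftl1, the ferritin light chain, was 1.43 higher (SE 0.39), with 1 HSC spot left out of the fit.

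Of 14 tested peroxidase and reductase probes, 3 were higher in MSC than in HSC at an unadjusted p under 0.05, among them Gpx3 and Glo1. Gpx3, a secreted glutathione peroxidase, was 0.87 higher (SE 0.30) or 0.53 without MSC replicate 2, and Glo1, which clears methylglyoxal with glutathione, was 0.75 higher (SE 0.22). Gsr, the reductase that regenerates glutathione, read 11.31 and 8.60 in BM, 9.17 and 8.26 in HSC, and 10.19 and 10.86 in MSC. Its difference of 1.81 came with an SE of 0.82 and was not among the 3 (limma, unadjusted p = 0.0634). The BM arrays of Gsr spanned the range of its MSC arrays.
Among 5 tested probes for the export of conjugates, Abcg2 was 1.66 higher (SE 0.52), or 1.06 without HSC replicate 2. Abcc3 was not well above background in HSC and was 0.96 higher (SE 0.26, 95% interval 0.34 to 1.59). It was 1.60-fold higher with its HSC readings raised to the dimmest still above background, a limit that leaves out the spread between arrays. Abcc1, the main exporter of glutathione conjugates in many cells, differed by 0.46 (SE 0.34), or 0.24 without HSC replicate 2. Among 6 tested probes of further cytosolic transferases, Gstp3 was 0.94 higher (SE 0.27), Gsto2 0.76 higher (SE 0.33) and Eef1g, a translation factor with a transferase-like domain, 1.27 higher (SE 0.54). These were 0.59 for Gstp3 without HSC replicate 1, 0.40 for Gsto2 and 0.86 for Eef1g without HSC replicate 2, and 0.85 for Eef1g without MSC replicate 2. Alox5ap, a relative of the membrane-bound enzymes that helps to make leukotrienes, differed by 0.20 (SE 0.38), or by -0.39 without HSC replicate 2 and 0.81 without HSC replicate 1.

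**Figure D4:**
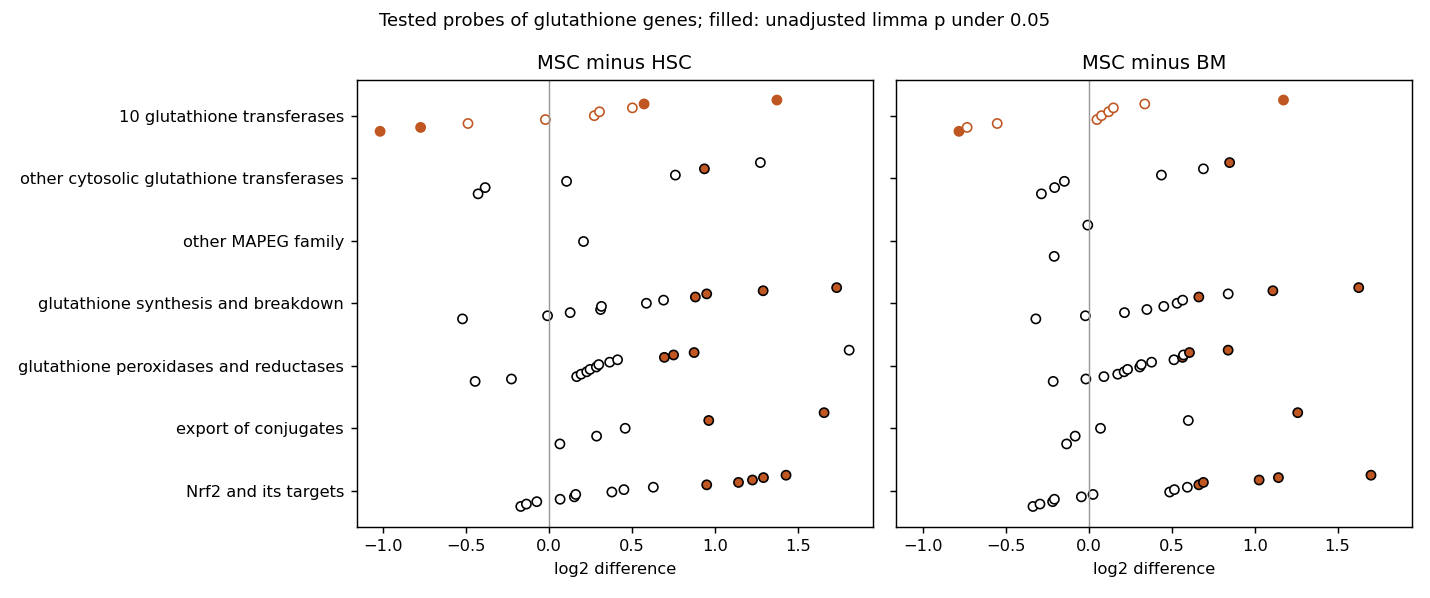
Log2 differences of the tested probes of the 10 glutathione transferases (orange rims) and of the other glutathione lists (black rims), for MSC minus HSC and MSC minus BM. Filled marks had an unadjusted limma p under 0.05; in the other lists all filled marks lie to the right of 0, whereas the members have filled marks on both sides.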

How the data were processed

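Total RNA of pooled BM was hybridized to 6 CodeLink UniSet 20K I bioarrays, called mouse arrays in the methods of the study and human arrays in the label protocol; the probes carry mouse records. Per the file headers, spots were read with CodeLink Expression Analysis 4.0.0.23520. The deposited scanner files give the mean intensity and local background of each spot as linear intensity. The deposited value table of the authors is in log2 and its entries follow the order of the absolute background-subtracted intensity within each array and were used as an alternative. From the scanner intensity, background was corrected by normexp (offset 50), spots with a mark for contamination, exclusion or a defect and 488 controls were left out, and the log2 values were quantile normalized across arrays. Probes were tested when at least 1 of the groups compared had both arrays above background. The test was limma 3.58.1 in R 4.3.3 (two-sided, Benjamini-Hochberg over all tested probes, threshold 0.05) on all 6 arrays, which leaves 3 residual degrees of freedom. SE is the standard error from this fit. Precision is limited by having 2 arrays per group, and p-values measure the spread between pools, which the labels do not place in separate experiments.

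Probes were named through RefSeq records, gene numbers or the platform annotation (14632 of 19801). The text names every member, up to 3 tested genes per pathway list with the largest change between MSC and HSC, and the 4 genes closest to Gstm5 and to Mgst1, of which 1 is not reported here. Members and lists were chosen with earlier results of these data known. The fit was tested on simulated data. Figures were made with Python 3.11.15 and matplotlib 3.10.9. Alternatives covered background correction, offset, scaling, deposited values, filters, variance models, the pool number as a block, each array left out and the methods' t-test; keeping contaminated spots and the counts at an unadjusted p were added after seeing the data.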

Additional observations from a re-analysis of the deposited data

How the results depend on the processing

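Gstm5 was higher in MSC than in HSC under all 18 alternatives, by 1.19 to 1.47 (adjusted p 0.0407 to 0.419), and Mgst1 lower, by -1.23 to -0.80 (0.0982 to 0.474). Gstm5 less Mgst1 ranged from 2.15 to 2.67 over 12. The count of members past the threshold in MSC against HSC was 1 (Gstm5) with probes above background on all 6 arrays, with the variance trend and with the methods' t-test at its threshold and ratio, and 0 in the other 16 alternatives. Without MSC replicate 1, the other glutathione genes past the threshold between MSC and BM were 1 (Hmox1, 2.18, adjusted p = 0.0377); over the arrays left out this count ran from 0 to 1. Small differences changed sign, and the cause was not tested. With median scaling, MSC minus BM was -0.068 for Gstm1, -0.0029 for Gsto1 and -0.17 for Mgst3. MSC minus HSC of Mgst3 was 0.033 with cyclic loess and 0.14 with contaminated spots kept. Over the arrays left out, MSC minus HSC ran from -0.98 to 0.0084 for Mgst2 and from -0.13 to 0.083 for Mgst3, MSC minus BM from -0.086 to 0.24 for Gstm1, -0.045 to 0.34 for Gstt1, -0.20 to 0.45 for Gsto1 and -0.29 to 0.39 for Mgst3, and HSC minus BM from -0.065 to 0.51 for Gsta4, -0.35 to 0.035 for Gstt1 and -0.27 to 0.41 for Mgst3.

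The labels do not say that pools with the same number belong together. Deviations of pool 1 from pool 2 correlated at 0.57 between BM and HSC, -0.28 between BM and MSC and -0.20 between HSC and MSC over 8848 probes. With the pool number as a replicate block, the calls over all probes were 15 between MSC and HSC, 22 between MSC and BM and 0 between HSC and BM, against 56, 51 and 4, no member or other glutathione gene passed, and Mgst3 differed by -0.17 between MSC and BM. Calls over all probes between MSC and HSC were 24 with the deposited values, 17 with no filter on dim probes, 84 with median scaling and 27 to 88 with an array left out. They were 24, 23 and 77 between MSC and BM, with 22 to 108 over the arrays left out 22 with only the 4 arrays compared and 30 with probes above background on all 6. Between HSC and BM they were 7 with median scaling, 0 with the deposited values or only the 4 arrays compared, and 0 to 71 over the arrays left out. The adjusted t-test called 0. Weakly lit probes such as Gstm2 and Gsta4 were near background, so differences in them have no exact size.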
